A study of Mus musculus with 9 samples.

Results

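Linear ubiquitin machinery was described in the PVN from 6 genes: Rnf31, Rbck1 and Sharpin for the 3 subunits of the ligase that builds the chains, Otulin and Cyld for the 2 deubiquitinases that cut them, and Ikbkg for NEMO, which binds them. These genes were chosen by name among the 27179 genes of the count table, and all 6 were among the 17344 genes with enough reads to be tested. They were chosen with results of the same comparisons known, so their values by group are given as a description, without a p-value. Gene expression was measured by bulk RNA sequencing of PVN tissue punches from wild type male mice, C57BL/6 by the labels and C57BL/6J by the study's methods, 3 independent animals in each of 3 groups. Control mice ate chow with 16% of calories from fat for 12 weeks. HFD mice ate a diet with 60% of calories from fat for the same time and drank tap water. HFD+Mino mice ate the 60% diet and received minocycline, a tetracycline antibiotic, in the drinking water over the final 6 weeks, at 40 mg/kg/day. The labels give an age of 35 days for every sample, and by the study's methods the diets began when mice were 5 weeks old. No sequenced group received minocycline on chow, and a punch holds neurons, glia and vessels together.

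Ubiquitin is a small protein that is attached to other proteins, and in linear chains each ubiquitin is joined to the starting methionine of the next. The ligase is a complex of HOIP, the catalytic subunit encoded by Rnf31, with the partners encoded by Rbck1 and Sharpin. At the activated TNF receptor and at related immune receptors the chains recruit NEMO, the regulatory subunit of the IκB kinase complex, which turns on NF-κB, and they hold back cell death. OTULIN cuts linear chains specifically, whereas CYLD also cuts chains linked through lysine.

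The GC-richest stretches of 3 members are shown because the HFD difference of all tested genes varied with this property, mostly among genes with the highest content, as described below. Each is the window of 100 nt with the most G and C in the longest protein-coding GENCODE transcript. The Otulin window runs from position 131 to 230 of its transcript, in exon 1 and within the coding part, at chr15:27630464-27630563 on the minus strand of GRCm38, and 87% of its bases are G or C. The Sharpin window, at chr15:76350577-76350676 on the minus strand, holds 76% and the Ikbkg window, at chrX:74438945-74439044 on the plus strand, holds 65%, and both are coding. The windows of Cyld (68%), Rnf31 (75%) and Rbck1 (76%) reach outside the coding part. The median over tested genes was 73%. No letters are in capitals in these windows.
Otulin GC-richest window: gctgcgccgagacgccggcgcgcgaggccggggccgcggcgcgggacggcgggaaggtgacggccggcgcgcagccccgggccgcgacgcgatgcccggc
Sharpin GC-richest window: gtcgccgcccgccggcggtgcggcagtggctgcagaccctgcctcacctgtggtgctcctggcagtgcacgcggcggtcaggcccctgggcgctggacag
Ikbkg GC-richest window: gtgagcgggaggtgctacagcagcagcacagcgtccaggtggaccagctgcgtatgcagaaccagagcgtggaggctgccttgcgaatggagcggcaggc

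The promoters of Otulin, Cyld and Rnf31 are shown as examples. HFD samples lay below all others for Otulin and above all others for Cyld and Rnf31. Ikbkg, whose HFD samples also lay above all others, had several entries and is described below without its sequences. So is Rbck1, whose HFD samples overlapped those of Control. Sharpin, whose HFD samples lay below all others, had no entry. They were taken from RefSeq (GRCm38.p6) and run from 250 bases before the transcription start to 50 after it, with matches to the GC box GGGCGG, on either strand, in capitals. Of the 6 genes, 5 had an entry in the promoter table, with 9 entries in all. The Otulin promoter lies at chr15:27630644-27630943 on the minus strand, the Cyld promoter at chr8:88696778-88697077 on the plus strand, and the Rnf31 promoter at chr14:55591492-55591791 on the plus strand.
Otulin promoter: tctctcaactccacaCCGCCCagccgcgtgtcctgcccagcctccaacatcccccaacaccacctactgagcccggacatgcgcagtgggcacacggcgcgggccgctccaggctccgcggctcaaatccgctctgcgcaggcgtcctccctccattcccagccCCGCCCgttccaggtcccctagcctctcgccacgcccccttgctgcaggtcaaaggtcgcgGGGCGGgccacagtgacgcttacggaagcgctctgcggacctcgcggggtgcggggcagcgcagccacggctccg
Cyld promoter: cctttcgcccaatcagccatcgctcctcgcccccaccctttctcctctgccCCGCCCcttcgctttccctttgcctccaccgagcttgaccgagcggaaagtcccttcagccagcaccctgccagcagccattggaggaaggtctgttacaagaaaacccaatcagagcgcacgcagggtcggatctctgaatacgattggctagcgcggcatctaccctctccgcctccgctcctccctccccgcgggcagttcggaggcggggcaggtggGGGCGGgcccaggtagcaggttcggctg
Rnf31 promoter: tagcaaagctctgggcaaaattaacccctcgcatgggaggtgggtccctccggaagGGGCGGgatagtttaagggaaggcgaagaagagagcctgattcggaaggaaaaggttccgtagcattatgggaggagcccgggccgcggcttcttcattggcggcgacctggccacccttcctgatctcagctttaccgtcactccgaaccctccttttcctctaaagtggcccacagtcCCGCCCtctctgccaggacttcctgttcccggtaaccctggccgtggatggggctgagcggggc

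The Otulin promoter held 71.0% G and C, a share that 8.16% of the 32851 promoters in the table reach, against a median of 52.7%. The Cyld promoter held 64.7% and the Rnf31 promoter 60.0%. Otulin had 3 GC boxes and Cyld and Rnf31 had 2 each, and 35.7% of all promoters hold at least 1. CCAAT, searched on both strands, was found 4 times in the Cyld promoter, 1 time in that of Rnf31 and not in that of Otulin, and 37.4% of all promoters hold it. The NF-κB consensus, searched on both strands, matched 1 time in the Cyld promoter, apart from its GC boxes and CCAAT matches, and not in the other two, and 4.51% of all promoters hold it. The Ikbkg entries held 62.3%, 46.0%, 57.3% and 49.0% G and C, with 2, 0, 0 and 0 GC boxes in the same order. CCAAT matched 1 time among them, in the entry with 46.0%, and the NF-κB consensus matched in none. The Rbck1 entries held 60.3% and 66.3% G and C, with 2 and 3 GC boxes, 2 and 0 CCAAT matches and no NF-κB match. The latter entry thus had the GC box and CCAAT counts of the Otulin promoter. These matches are letters in a window and not measured binding.

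Libraries held from 17728590 to 42326213 counted reads. HFD libraries were more alike than those of the other groups. The chi-square of counts per degree of freedom between libraries of a group was 21.0 to 31.2 in HFD. It was 90.3 to 289 in Control and 108 to 316 in HFD+Mino. The fit shares its estimate of spread over the groups, and why the groups differ in spread was not tested. Control replicate 1 stood apart, since most but not all markers of PVN neurons were low there. Avp, the vasopressin gene, was at 0.149 CPM (counts scaled to a library of 1e+06 reads), Oxt and Sim1 at 0.770 CPM and Otp at 0 reads. Otp was at most 2.77 CPM in any library. Trh was at 5.49 CPM, against 260 to 852 CPM elsewhere. Crh was at 20.6 CPM, above its 14.4 CPM in HFD replicate 1. HFD+Mino replicates 1 and 2 held 28049 and 22180 CPM of Avp, while Avp in the other 6 libraries lay between 157 and 1984 CPM. Ribosomal Rn45s took from 0.350% to 0.430% of HFD reads and at most 0.113% of reads elsewhere. Summed astrocyte markers (6 genes) were also higher in HFD, at 2484 to 2700 CPM, than in Control (1912 to 2049 CPM) and HFD+Mino (1483 to 1808 CPM), with 5 of the 6 genes above 0 on the log2 scale in HFD against Control, and 0 of the 6 passed the test in any comparison of groups in pairs. Summed markers of neighbouring nuclei (5 genes) were low in HFD, at 15.3 to 35.5 CPM, against 32.97 to 3396 CPM in Control and 32.6 to 158 CPM in HFD+Mino, and all 5 genes were lower in HFD than in Control and higher in HFD+Mino than in HFD. Microglia markers (12 genes) summed to 359 to 595 CPM in Control, 455 to 486 CPM in HFD and 561 to 712 CPM in HFD+Mino, and oligodendrocyte markers (5 genes) to 3315 to 27545, 2271 to 6225 and 1956 to 5354 CPM. None of these genes was called, and the part of these cells in the results was not tested. In bulk tissue, fewer cells of a type and less RNA per cell cannot be told apart.

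Otulin, the deubiquitinase specific for linear chains, was the member with the widest difference between groups (NCBI gene 432940, chr15:27597055-27630977, minus strand). Its level was 29.6, 32.8 and 26.9 CPM in Control, 1.20, 2.20 and 1.34 CPM in HFD, and 29.3, 19.0 and 36.1 CPM in HFD+Mino. Every HFD sample lay far below every other sample, and the Control and HFD+Mino samples overlapped. Group means with their SD (n = 3) were 29.8 ± 2.92 CPM for Control, 1.58 ± 0.541 CPM for HFD and 28.1 ± 8.58 CPM for HFD+Mino. The HFD values rest on 24, 76 and 54 reads, against 512 to 1320 reads in the other 6 samples. The fitted level was 18.6-fold lower in HFD than in Control, a log2 change of -4.22 (SE 0.35). It was 17.6-fold higher in HFD+Mino than in HFD, a log2 change of 4.14 (SE 0.35). Each SE of a log2 change was derived from its test statistic, as given under data processing. HFD+Mino and Control differed by a log2 change of -0.08 (SE 0.30), which is within its error. The HFD level lay at a log2 distance of -2.79 from the mean of all 3 groups, by which Otulin ranked 13 from the lowest of 17344 genes.

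Cyld encodes the deubiquitinase that is also lost in a familial skin tumour syndrome, and it ran opposite to Otulin (gene 74256, chr8:88696878-88751946, plus strand). Its level was 52.7, 61.8 and 85.1 CPM in Control, 158, 142 and 133 CPM in HFD, and 62.9, 59.7 and 66.5 CPM in HFD+Mino. All HFD samples lay above all others, while the Control samples spanned the whole HFD+Mino range. The means were 66.5 ± 16.7, 144 ± 12.7 and 63.0 ± 3.43 CPM in that order of groups (SD, n = 3). Cyld was 2.17-fold higher in HFD than in Control (log2 1.12, SE 0.22), and the log2 change of HFD+Mino against HFD was -1.19 (SE 0.22). The number of Cyld reads per Otulin read therefore differed widely. It was 1.78, 1.89 and 3.16 in Control, 131, 64.5 and 98.7 in HFD, and 2.14, 3.14 and 1.85 in HFD+Mino.

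**Figure D1:**
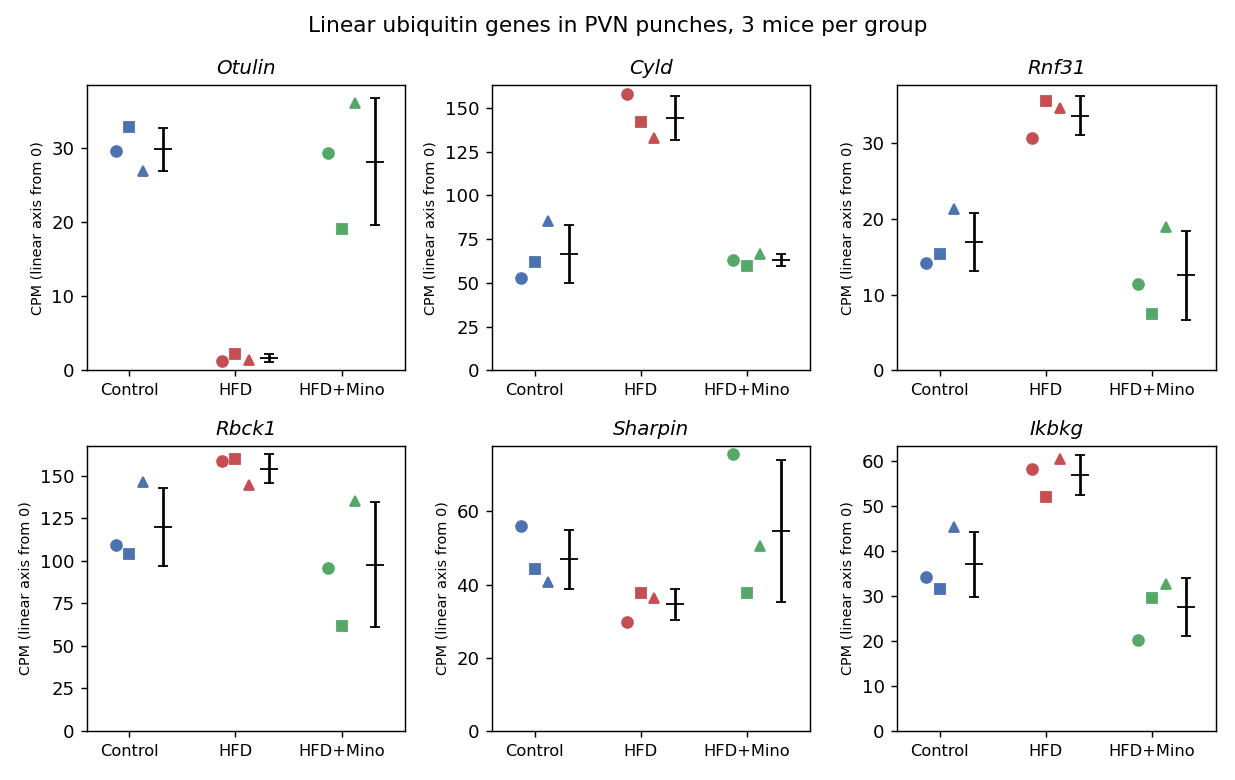
Level of each linear ubiquitin gene in the 9 PVN samples, in CPM on linear axes that start at 0. Circles, squares and triangles are replicates 1, 2 and 3, and black marks are the group mean with its SD (n = 3). Otulin lay between 1.20 and 2.20 CPM in HFD and at 19.0 CPM or more elsewhere, whereas the HFD mean was the highest for Cyld, Rnf31, Rbck1 and Ikbkg, and for Rbck1 the samples overlapped.

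Rnf31 encodes HOIP, the subunit that forms the linear bond (gene 268749, chr14:55591713-55603674, plus strand). Its level was 14.2, 15.4 and 21.3 CPM in Control, 30.7, 35.5 and 34.7 CPM in HFD, and 11.3, 7.39 and 18.9 CPM in HFD+Mino. HFD again lay above every other sample. The log2 change was 0.99 (SE 0.33), 1.98-fold, for HFD against Control and -1.42 (SE 0.33) for HFD+Mino against HFD. GENCODE gives Rnf31 and its downstream neighbour Irf9 123 nt of shared exon on the same strand, so reads there are uncertain between them, and Irf9 was at 17.8 CPM in Control, 13.5 CPM in HFD and 23.8 CPM in HFD+Mino.

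The partners of HOIP differed from each other. Rbck1, whose product carries a second ligase centre (gene 24105, chr2:152316334-152332663, minus strand), was at 110, 104 and 146 CPM in Control, 159, 160 and 145 CPM in HFD, and 96.0, 62.0 and 135 CPM in HFD+Mino. Its mean was highest in HFD, as for Rnf31, at 154 CPM against 120 and 97.8 CPM, but the HFD samples overlapped those of Control, and the log2 change between these groups was 0.36 (SE 0.28). Sharpin, the adaptor subunit missing in mice with chronic proliferative dermatitis (gene 106025, chr15:76347040-76351110, minus strand), was at 56.1, 44.2 and 40.6 CPM in Control, 29.8, 37.67 and 36.3 CPM in HFD, and 75.7, 37.70 and 50.4 CPM in HFD+Mino. Its HFD samples lay below all others, but the margin to HFD+Mino replicate 2 was the last digit shown, and the log2 change against Control was -0.44 (SE 0.27). The ratio of Rnf31 to Sharpin reads was 0.375 ± 0.138 for Control, 0.975 ± 0.0464 for HFD and 0.240 ± 0.119 for HFD+Mino (SD, n = 3). Per kb of exon, Rnf31 made up from 6.03% to 8.06% of the summed level of the 3 ligase genes in Control, from 11.2% to 12.9% in HFD and from 4.63% to 7.18% in HFD+Mino. The HFD range of this share did not overlap the others.

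Ikbkg encodes NEMO, the reader of linear chains in the IκB kinase complex (gene 16151, chrX:74393233-74456792, plus strand). Its level was 34.3, 31.6 and 45.3 CPM in Control, 58.4, 52.1 and 60.6 CPM in HFD, and 20.3, 29.6 and 32.7 CPM in HFD+Mino. HFD lay above all other samples, with a log2 change of 0.62 (SE 0.24) against Control, and HFD+Mino against HFD gave -1.05 (SE 0.24). Ikbkg shares 418 nt of exon with G6pdx on the opposite strand, and the library kit does not mark strand, so reads from that part cannot be told apart. G6pdx differed in the other direction, at 104 CPM in Control, 69.5 CPM in HFD and 83.2 CPM in HFD+Mino.

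**Figure D2:**
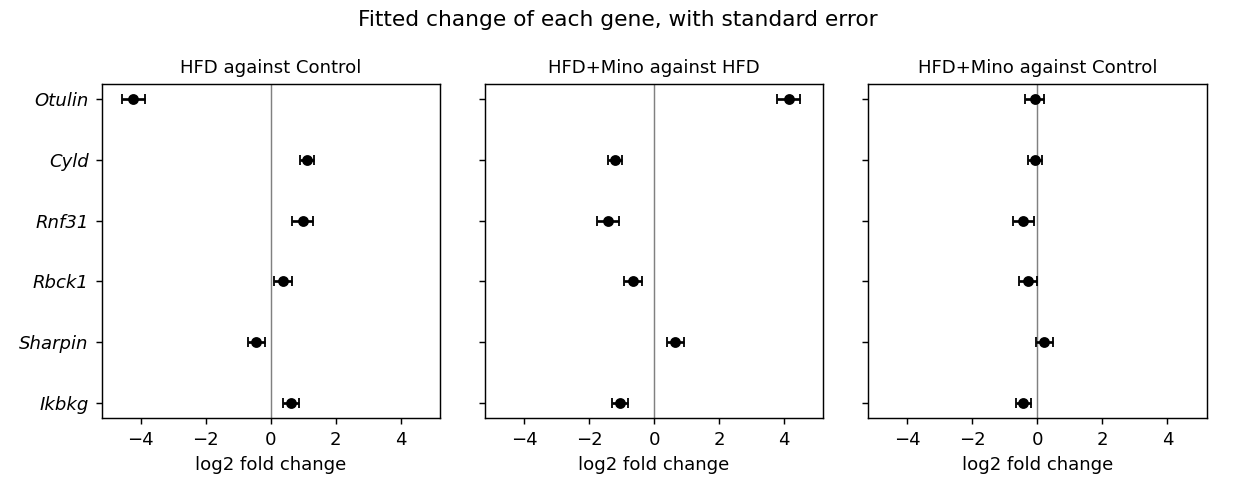
Fitted log2 fold change of each gene in the 3 comparisons of groups in pairs, with bars of 1 standard error. Otulin sat at -4.22 and 4.14 in the comparisons with HFD, Cyld at 1.12 and -1.19, and no gene lay beyond 0.43 in either direction between HFD+Mino and Control.

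A gene was called when its false discovery rate (FDR) in the edgeR quasi-likelihood test, adjusted by Benjamini-Hochberg over all tested genes, was under 0.01 and its change at least 1.5-fold. In HFD against Control, 1 of the 6 members was called, Otulin as lower, and 1.74% of all tested genes were, 0.317% higher and 1.42% lower. With minocycline, in HFD+Mino against HFD, 2 members were called, Otulin higher and Cyld lower, against 4.15% of all tested genes, 1.98% higher and 2.16% lower. In the 3-way test, which asks whether the groups differ with HFD as the highest or lowest group, Otulin was called as low and Cyld as high, against 2.13% of all tested genes, 0.917% high and 1.21% low. Between HFD+Mino and Control, 0 members and 0% of all tested genes were called by edgeR. At an unadjusted p under 0.05 this comparison held 3697 genes and 0 members, and DESeq2 called 229 genes and 0 members. All HFD samples lay above all others for 3 members, Cyld, Rnf31 and Ikbkg, and below all others for 2, Otulin and Sharpin. Among all tested genes 13.4% lay above, 9.62% below and 23% either way. The members were chosen from these comparisons, and nothing is read from their counts.

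The Otulin difference between HFD and Control did not rest on 1 library. It was -4.22 without Control replicate 1, the library with hardly any Avp reads, and ranged from -4.54 to -4.07 as each of the 9 samples was left out. Without HFD replicate 3, the 3-way call of Otulin was lost at a log2 distance of -2.71. That fit called 0.0168% of all tested genes in the 3-way test, against 2.13% with all samples. Without Control replicate 1 the log2 change of HFD against Control was 0.97 for Cyld, 0.87 for Rnf31, 0.30 for Rbck1, -0.29 for Sharpin and 0.56 for Ikbkg. The Cyld calls were kept in fewer fits: the call in HFD+Mino against HFD was kept in 3 of 9 fits that left out 1 sample, with log2 changes from -1.25 to -1.13, and the 3-way call in 2 of 9. The former was kept without Control replicate 1, Control replicate 3 or HFD+Mino replicate 3, and the latter without either of the last 2. Fits that lost the former called 0.162% to 1.89% of all tested genes in that comparison, against 4.15% with all samples. Fits that lost the latter called 0.0168% to 2.08% in the 3-way test, against 2.13%. Without Control replicate 3 or HFD+Mino replicate 3, Cyld was also called in HFD against Control (1.7% and 3.08% of all tested genes called). Without HFD+Mino replicate 3, Rnf31 and Ikbkg were called in HFD+Mino against HFD, and Rnf31 in the 3-way test. That fit called 21.4% and 13.4% of all tested genes in these tests. When Rn45s and mitochondrial genes were dropped from the counts, the HFD against Control change was -4.22 for Otulin and 1.12 for Cyld.

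The order of the members by level per kb of exon, with exon lengths from GENCODE, was the same in Control and HFD+Mino and differed in HFD. In Control it was Rbck1 (26.1 CPM per kb), Otulin (17.6), Sharpin (12.3), Cyld (5.29), Ikbkg (4.57) and Rnf31 (2.96), and only the ranges of Cyld and Ikbkg overlapped among neighbours in this order. In HFD it was Rbck1 (33.5 CPM per kb), Cyld (11.5), Sharpin (9.07), Ikbkg (7.03), Rnf31 (5.87) and Otulin (0.936), with no overlap between neighbours. In HFD+Mino the order was Rbck1 (21.3 CPM per kb), Otulin (16.6), Sharpin (14.3), Cyld (5.01), Ikbkg (3.39) and Rnf31 (2.19), and the ranges overlapped between Rbck1 and Otulin, between Otulin and Sharpin, and between Ikbkg and Rnf31. The exon length behind the Otulin value, 1693 nt, is from GENCODE, and the RefSeq gene runs 8864 bases beyond the GENCODE end, so its level per kb may be too high. With all of these bases counted as exon, a length chosen after the data were seen, the means of Otulin were 2.82 CPM per kb for Control, 0.150 for HFD and 2.66 for HFD+Mino. It was then last in the Control order too, but above Rnf31 (2.19) in the HFD+Mino order, so these orders then differed. The place of Otulin outside HFD depends on the annotation.

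Across the 9 samples, likeness of profiles was measured as the root mean square difference between log2 CPM values centred on each gene's own mean. Cyld and Ikbkg were the members most alike, at 0.299. Otulin differed from every other member by at least 1.75, the value for Sharpin, and by 2.58 from Rnf31. The 5 tested genes nearest to Otulin were Alyref (0.249), Ube2m (0.365), Dexi (0.378), Kctd2 (0.424) and Ppp2ca (0.478). Alyref encodes an mRNA export factor, Ube2m the conjugating enzyme for the ubiquitin-like protein NEDD8, and Ppp2ca the catalytic subunit of protein phosphatase 2A. Their HFD means were low as well: Alyref had 66.8 ± 10.6 CPM under Control, 3.08 ± 0.450 CPM under HFD and 61.0 ± 6.79 CPM under HFD+Mino (SD, n = 3). These genes were chosen for their likeness, which is a description over samples that share depth and group. The GC-richest windows of the 5 genes held 87%, 89%, 87%, 88% and 84% G and C in the same order, beside 87% in Otulin.

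**Figure D3:**
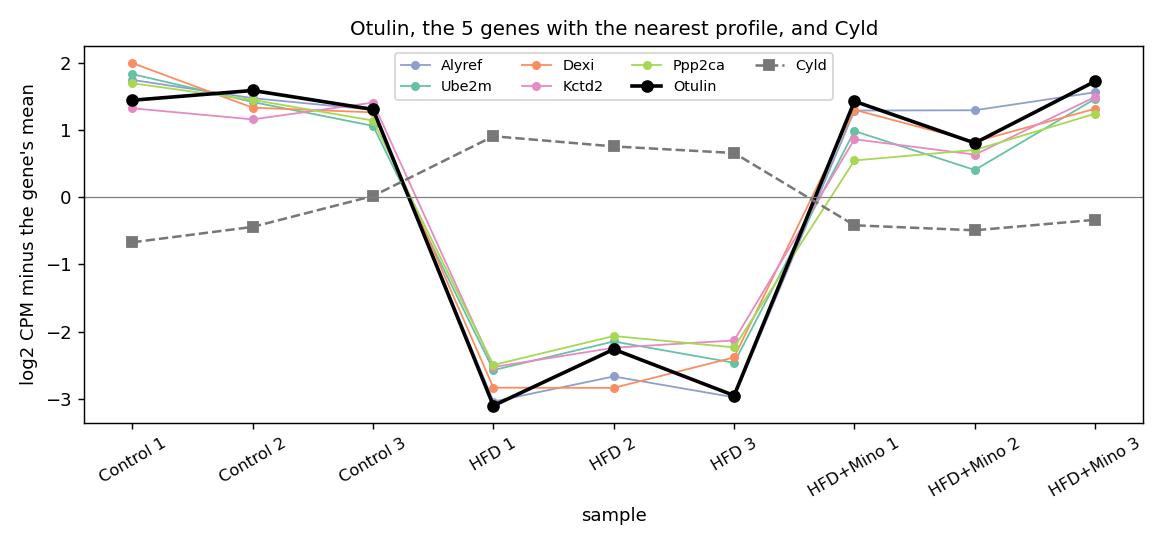
Log2 CPM of Otulin (black), of the 5 tested genes with the nearest profile and of Cyld (grey, dashed), each minus the gene's own mean, in the 9 samples. Lines only join the points of 1 gene. The Otulin-like genes lay below their means in all 3 HFD samples and above them in the other 6, and Cyld lay above its mean in HFD.

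The HFD difference over all genes varied with this property of the transcript, mostly among genes with the highest content. Among the 15625 tested genes with a known transcript, 1368 had a window of at least 85% G and C, and their median log2 change of HFD against Control was -0.51. In the 6 bins of lower content the medians lay between -0.06 and 0.13, and they rose from the lowest bin to that of 75% to 80%. In the 3-way test 11.3% of the genes in the GC-richest bin were called low in HFD, as against 1.21% of all tested genes and at most 0.777% in any other bin. Otulin was the only member in that bin, and its change of -4.22 lay far below the median of the bin. With a smooth trend of each sample on this property removed, the log2 change of Otulin was -3.73 for HFD against Control and 3.89 for HFD+Mino against HFD, and both calls were kept. For Sharpin the same correction gave -0.62 and 0.90, and for Rnf31 0.84 and -1.22. What part the stretch has in the remaining difference was not tested.

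**Figure D4:**
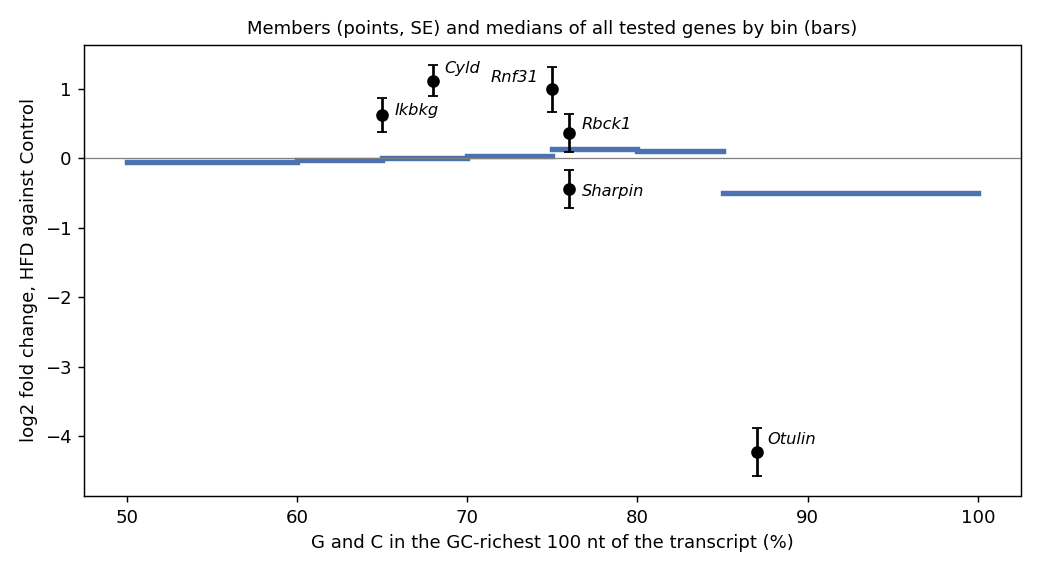
Log2 fold change of HFD against Control by the share of G and C in the GC-richest 100 nt of the transcript. Points are the 6 members with 1 standard error, and blue bars are medians of all tested genes in 7 bins, the lowest drawn from 50%. The bin from 85% had a median of -0.51, and Otulin, at 87%, lay at -4.22.

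Exon length moved with the differences too. The median log2 change of HFD against Control went from -0.26 in the shortest 5th of genes to 0.39 in the longest, and that of HFD+Mino against HFD from 0.86 to -0.57. Cyld, with 12576 nt, is the longest member, and Otulin has 1693 nt in GENCODE but up to 10557 nt with the RefSeq end. With the trend on exon length removed, Otulin, at its GENCODE length, gave -4.0 and 3.48 in these comparisons and Cyld 0.67 and -0.57, and the call of Cyld was lost. The length correction took the Ikbkg change of HFD+Mino against HFD from -1.05 to -0.54. With a trend on the GC content of the longest protein-coding transcript removed instead, Cyld gave 1.01 and -1.04 and was again not called, in the 3-way test either. Rnf31 gave 0.99 and -1.37 and was called in the latter comparison and, in place of Cyld, in the 3-way test.

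Genes beside the members on the chromosome were read next. Otulinl, a paralog of Otulin 24093 bp away, was at 21.6 CPM in Control, 19.1 CPM in HFD and 30.7 CPM in HFD+Mino and was not called. Ank, a membrane protein gene of pyrophosphate export 2146 bp from the other end of Otulin and on the opposite strand, was at 139 ± 34.1 CPM for Control, 34.9 ± 7.63 CPM for HFD and 68.3 ± 13.7 CPM for HFD+Mino (SD, n = 3). It fell in HFD against Control by a log2 change of -1.99 (edgeR quasi-likelihood test, FDR = 0.00187). GENCODE lets the spans of Ank and Otulin overlap but gives them 0 nt of shared exon. Psme2, a subunit gene of the proteasome activator 612 bp from Rnf31, rose in HFD+Mino against HFD by a log2 change of 1.61 (FDR = 0.00919). The other 9 tested neighbours were not called in any comparison.

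The wider pathway was read from 8 lists of 109 genes, of which 104 were tested. In HFD against Control 0 of them rose and 3 fell, or 2.88% beside 1.74% of all tested genes. Of the same genes 2 rose and 4 fell in HFD+Mino against HFD, or 5.77% beside 4.15%. The 3-way test called 1 as high and 2 as low in HFD, or 2.88% beside 2.13%. Between HFD+Mino and Control edgeR and DESeq2 called 0, and 19 had an unadjusted p under 0.05. The median log2 change over the 104 genes was -0.05, 0.02 and -0.14 in the 3 comparisons in pairs, beside 0.0043, 0.0089 and -0.023 over all tested genes. Without Control replicate 2 or any 1 of the HFD replicates, 0 list genes were called in either comparison with HFD or in the 3-way test. Few of all tested genes were called in these fits either. Their shares were 0.335% to 0.509% in HFD against Control, 0.162% to 0.828% in HFD+Mino against HFD and 0.0168% to 0.375% in the 3-way test. Without HFD+Mino replicate 3, 5 list genes were called in HFD against Control (4.76% beside 3.08% of all genes) and 18 in HFD+Mino against HFD (17.1% beside 21.4%). Without HFD+Mino replicate 1, 1 was called in the latter (0.943% beside 0.59%). Without Control replicate 1, 1 was called in HFD against Control (0.952% beside 1.01%).

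Most of the list genes called by edgeR were other RING-between-RING ligases, relatives of HOIP by the fold of their catalytic part, of which 12 were tested. DESeq2 called 3 of the 12 in HFD against Control, 5 in HFD+Mino against HFD and 4 in the 3-way test. It called as many of the 15 other OTU family deubiquitinases described below, and 6.76%, 22.2% and 13.4% of all tested genes. Rnf217 was at 8.32, 9.97 and 9.83 CPM in Control, 2.21, 2.06 and 1.62 CPM in HFD, and 6.09, 9.40 and 13.4 CPM in HFD+Mino. It fell in HFD against Control (log2 -2.26, FDR = 0.00424) and rose in HFD+Mino against HFD (log2 2.30, FDR = 0.00399). Rnf19b, a membrane-bound ligase, had means of 28.4 CPM for Control and 10.3 CPM for HFD and values of 20.7, 22.6 and 31.5 CPM under HFD+Mino, with changes of -1.46 (FDR = 0.00618) and 1.27 (FDR = 0.00848). Cul9, a very large cullin ligase, and Rnf144a went the other way. Cul9 had means of 17.5, 55.1 and 13.8 CPM and fell in HFD+Mino against HFD by a log2 change of -1.99 (FDR = 0.00914). Rnf144a had means of 11.4, 22.1 and 7.03 CPM and fell in the same comparison by a log2 change of -1.65 (FDR = 0.00604). The list thus held 2 edgeR calls in HFD against Control, both lower (16.7% beside 1.74% of all tested genes). It held 2 in each direction in HFD+Mino against HFD (33.3% beside 4.15%). These shares rest on few genes. The windows of Rnf217 and Rnf19b held 86% and 89% G and C, and with that trend removed their HFD against Control changes were -1.85 and -0.73, and the Rnf19b call was lost.

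Among 15 other OTU family deubiquitinases, the family of OTULIN, 1 gene was called, in HFD+Mino against HFD and in the 3-way test. That is 6.67% in each, beside 4.15% and 2.13% of all tested genes. Vcpip1, which acts with the ATPase p97 in Golgi reassembly, had means of 26.8, 54.0 and 18.7 CPM in Control, HFD and HFD+Mino. It fell in HFD+Mino against HFD by a log2 change of -1.53 (FDR = 0.00410) and was called as high in HFD by the 3-way test (FDR = 0.00711), a call that was lost with the trend on exon length, GC content or the GC-richest 100 nt removed. Otud7a, chosen after its values were seen, had the lowest change of the list in HFD against Control, -3.37, and did not pass (FDR = 0.0150). Tnfaip3, the gene of the NF-κB inhibitor A20, was not called.

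Of 13 tested ubiquitin genes, activating enzymes and conjugating enzymes, Uba6 was called in HFD+Mino against HFD (7.69% beside 4.15% of all tested genes). This alternative activating enzyme had means of 20.2, 39.9 and 13.3 CPM in Control, HFD and HFD+Mino, and fell in HFD+Mino against HFD by a log2 change of -1.59 (FDR = 0.00776). With the trend on exon length removed, the changes of Cul9, Rnf144a, Vcpip1 and Uba6 in this comparison were -1.36, -1.18, -0.96 and -1.07, and none of the 4 was called. Of the 14 genes of the TNF receptor 1 complex, where linear chains are laid down, Map3k7 was called. It encodes the kinase TAK1 and was at 27.2, 26.7 and 28.3 CPM in Control, 8.68, 9.37 and 11.1 CPM in HFD, and 20.9, 14.4 and 27.8 CPM in HFD+Mino. It fell in HFD against Control by a log2 change of -1.50 (FDR = 0.00960). This 1 call was 7.14% of the list, beside 1.74% of all tested genes. The Map3k7 window held 90% G and C, and the change was -0.67 and not called with that trend removed.

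The remaining 4 lists held no gene that edgeR called. Of 19 tested NF-κB target genes, 1 had an unadjusted p under 0.05 in HFD against Control, 3 in HFD+Mino against HFD, 3 in HFD+Mino against Control and 4 in the 3-way test, while 20.5%, 41.3%, 21.3% and 39% of all tested genes did. DESeq2 called 0, 2, 0 and 0 of them in the same order, and 6.76%, 22.2%, 1.32% and 13.4% of all tested genes. Their median log2 change of HFD against Control was -0.21, with 5 genes above 0 and 14 below. The 14 other receptors and adaptors had a median of 0.30, the 10 tested readers and members of the TBK1 arm -0.14, and the 7 cell death effectors downstream of the receptor -0.33. In HFD against Control these 3 lists held 3, 2 and 2 genes at an unadjusted p under 0.05 and 0 called by DESeq2. They held 5, 4 and 1 such genes in HFD+Mino against HFD, and DESeq2 called 2, 1 and 0. The cytokine genes Tnf, Il1b and Ccl2 had too few reads to be tested, with at most 7, 7 and 32 reads in a sample.

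**Figure D5:**
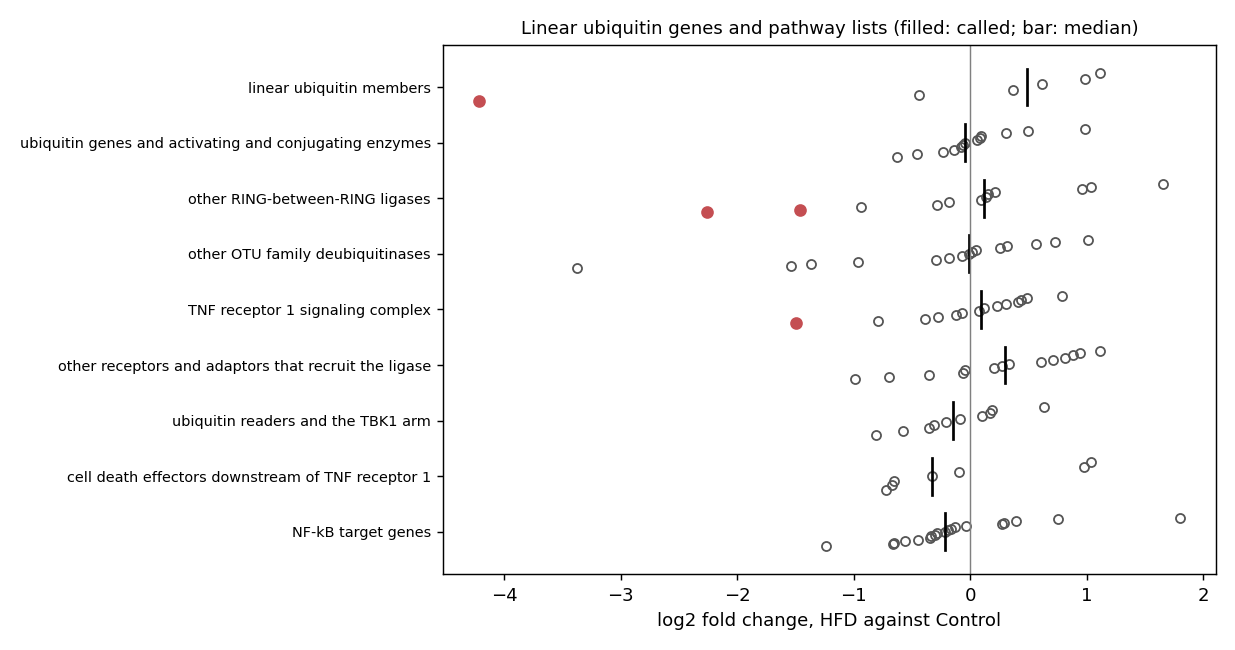
Log2 fold change of HFD against Control for the 6 members (top) and for the tested genes of the 8 pathway lists, 1 point per gene. Filled points were called, and black bars are medians. Otulin at -4.22 lay below every listed gene, the called list genes were Rnf217, Rnf19b and Map3k7, and the list medians lay between -0.33 and 0.30.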

How the data were processed

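PVN punches of 9 male mice, 3 per group by the sample titles, were sequenced after cDNA amplification with a low-input kit that does not mark strand. According to the study's methods and the submitters' processing notes, the authors aligned reads to mm10 with HISAT2 and assigned them to genes with featureCounts, and they deposited raw counts per gene without normalization, the unit used here. Strand settings and the treatment of reads with several positions are not given in the sources used here. All 9 columns were used and 0 were left out.

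Counts were filtered by filterByExpr, scaled by TMM and fitted in 1 quasi-likelihood model of all 9 samples with edgeR 4.0.16 in R 4.3.3, and tested by Benjamini-Hochberg adjusted p over 17344 genes. Calls needed an FDR under 0.01 and a 1.5-fold change. The standard error of a log2 change was its absolute value divided by the square root of the F statistic of its test. It is thus approximate and equal on both sides, also where reads are few. CPM use TMM-scaled libraries, and likeness used a prior count of 2. Total counts per sample set the precision together with the spread between mice. Reads carry no molecular identifiers. Tables were made with pandas 2.3.3 in Python 3.11.15, and the code was tested on simulated data.

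The members and lists were chosen with earlier results of these data known. The text names all members, every called gene of a list (up to the 5 with the largest change), the 5 genes most like Otulin, and genes that overlap or neighbour a member. Genes outside this rule are named as context: PVN markers, Rn45s, Tnfaip3 and cytokines. Otud7a is also outside it and was chosen after its values were seen. Exon lengths and windows came from GENCODE, positions from RefSeq. Alternatives were DESeq2 1.42.0, RLE and upper-quartile factors, no filter, Rn45s and mitochondrial genes dropped, a block on replicate number, trends on exon length, GC content or the GC-richest 100 nt removed with a lowess span of 0.3, an FDR under 0.05, and each sample left out. Replicate numbers are those of the sample titles. The count columns of Control and HFD+Mino carry the same numbers, but those of HFD carry other ones. Whether same-numbered HFD samples belong with the others is thus not known. Correlations of deviations from the group mean were 0.135, 0.163 and 0.292 for same-numbered Control and HFD+Mino samples. Samples with different numbers were not compared, so whether these samples are paired is not known. The correlations were -0.133, -0.109 and -0.00624 for Control and HFD, and -0.152, -0.125 and -0.0522 for HFD and HFD+Mino.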

Additional observations from a re-analysis of the deposited data

How the results depend on the processing

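The log2 change of Otulin in HFD against Control kept its direction and call in 9 of 9 alternative fits (-4.27 to -3.73) and in 9 of 9 fits that left out 1 sample (-4.54 to -4.07). For HFD+Mino against HFD it did so in 9 of 9 (3.48 to 4.21) and 9 of 9 (3.91 to 4.46). The 3-way call was kept in 9 of 9 alternative fits and 8 of 9 fits that left out 1 sample (-3.0 to -2.68). It was lost without HFD replicate 3 (-2.71), where 0.0168% of all tested genes were called. Between HFD+Mino and Control the change ranged over the fits that left out 1 sample from -0.31 to 0.13 for Otulin, -0.22 to 0.14 for Cyld and -0.092 to 0.42 for Sharpin. Its sign turned for Otulin with the trend on the GC-richest 100 nt removed (0.16) and without HFD+Mino replicate 2 (0.13), for Cyld with the trend on exon length removed (0.10) and without Control replicate 3 (0.14), and for Sharpin without HFD+Mino replicate 1 (-0.092), all of them changes within their errors. Members called in HFD against Control went from 1 to 2 with DESeq2 and with an FDR under 0.05, where the share of all tested genes went from 1.74% to 6.76% and 5.77%. They were 1 to 2 as samples were left out, where that share was 0.335% to 3.08%. Those called in HFD+Mino against HFD went from 2 to 4 with DESeq2 and with an FDR under 0.05, while the share of all tested genes went from 4.15% to 22.2% and 27.4%. They went to 1 with the trend on exon length removed (2.7% of all tested genes). As samples were left out they were 1 to 4 (0.162% to 21.4% of all tested genes). In the 3-way test the members called went from 2 to 1 with upper-quartile factors, with the replicate block and with the trend on exon length removed. These fits called 2.18%, 2.81% and 2.15% of all tested genes. As samples were left out the members called were 0 to 3 (0.0168% to 13.4% of all tested genes). The causes were not tested.

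With a block on the replicate number of the titles over all 9 samples, the 3-way call of Cyld was lost at a log2 distance of 0.78. Rnf31 was called in HFD+Mino against HFD at -1.51. The block changed no other call of a member, and in Control and HFD+Mino alone it called 0 members.

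Pathway list genes called in HFD against Control, 3, became 7 with DESeq2 (6.73% beside 6.76%), 6 with no filter (5.5% beside 1.92%), 5 with the trend on GC content removed (4.81% beside 2.88%), 1 with that on the GC-richest 100 nt removed (0.962% beside 1.49%) and 7 with an FDR under 0.05 (6.73% beside 5.77%). They were 0 to 5 as samples were left out, where 0.335% to 3.08% of all tested genes were called. Of HFD+Mino against HFD, 6 became 20 with DESeq2 (19.2% beside 22.2% of all genes), 2 with the trend on exon length removed (1.92% beside 2.7%) and 24 with an FDR under 0.05 (23.1% beside 27.4%). They were 0 to 18 as samples were left out, where 0.162% to 21.4% of all tested genes were called. In the 3-way test, 3 became 12 with DESeq2 (11.5% beside 13.4%), 9 with no filter (8.26% beside 5.19%), 1 with the trend on the GC-richest 100 nt removed (0.962% beside 1.95%) and 12 with an FDR under 0.05 (11.5% beside 13%). They were 0 to 9 as samples were left out, where 0.0168% to 13.4% of all tested genes were called. In HFD+Mino against Control 0 to 3 were called as samples were left out, the 3 without HFD+Mino replicate 3 (2.86% beside 6.28%). The 24 to 76 Otulin reads of the HFD samples limit the precision of its fold, and 3 mice per group limit every test.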
